A study of Chlorella sorokiniana and Chromochloris zofingiensis with 12 samples.

Results

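The entries described here are the 5 listings of the plant miRNA families miR168 and miR408 in the small RNA annotation of 2 green algae, out of 893 annotated entries and 154 miRNA entries in all. They were chosen by name: every mature or precursor miRNA listing with the number of either family, in the sheet of any library, was taken, and a listing exists only where a raw count was recorded. The 5 are the mature entries ath-miR-168a and ath-miR-168b and the precursor entries ath-mir-168a, ath-mir-168b and ath-mir-408. The prefix ath marks Arabidopsis thaliana, the land plant whose build TAIR9 is named in the submitters' processing notes, so that an entry counts algal reads placed on an Arabidopsis sequence. All 5 were listed in Chlorella zofingiensis, among 792 entries, and 0 of the 5 were listed in Chlorella sorokiniana, among 633 entries. No mature entry for miR408 was listed in any of the 12 libraries.

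The algae were C. sorokiniana strain NIES-2168 and C. zofingiensis strain ATCC30412, a species also named Chromochloris zofingiensis in the labels. Normal cultures of both were kept at 27 °C in Bold's Basal Medium, in continuous light of 10 µmol photons and with shaking at 30 rpm. Stress cultures of both were moved in mid log phase to light of 100 µmol photons, and 2% glucose was added, so the light and the glucose cannot be told apart. Each of the 4 groups had 3 libraries of small RNA, made from TRIzol total RNA with the NEBNext Multiplex Small RNA kit. The labels do not say that replicates came from separate cultures, so p-values measure only the spread between these libraries, which may be technical.

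A plant miRNA is cut from a hairpin precursor and loaded into an ARGONAUTE protein, which it guides to messenger RNAs of matching sequence. In Arabidopsis, miR168 pairs with the messenger RNA of ARGONAUTE1, the main effector of miRNA silencing, and so sits in a feedback loop on the silencing machinery itself. Arabidopsis miR408 accumulates when copper is scarce and pairs with messenger RNAs of copper proteins, among them plantacyanin and laccases. Mature plant miRNAs are mostly between 20 and 24 bases long, the length that Dicer-like enzymes leave.

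The commonest reads behind all 5 entries were much shorter than a miRNA. The sheets give the commonest tag (distinct read sequence) of each entry in each library, and over the 22 listings of the 5 entries only 4 sequences appeared, which are shown because most of the reads counted below are these. Capitals mark the bases that a tag shares with the other tag of its family. Both miR168 tags share 6 bases, the last of one and the first of the other, and the shorter miR408 tag lies whole inside the longer one.
miR168, 10-base tag: caggTCGGGA
miR168, 11-base tag: TCGGGAactga
miR408, 12-base tag: aGCATGGATTGA
miR408, 11-base tag: GCATGGATTGA
The 10-base tag mapped to 30 loci and the 11-base miR168 tag to 19 loci. The 12-base miR408 tag mapped to 14 loci and its 11-base form to 32 loci. None of the 4 had a single locus, so none of these reads can be assigned to miR168 or miR408 alone. None was the commonest tag of any other annotated entry, and none was contained in the 100 commonest tags of any library, which were 16 to 26 bases long.

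For ath-miR-168a, the mature form from the first miR168 gene, the raw count was 0 in each C. zofingiensis normal library and 9, 6 and 13 in stress libraries 1, 2 and 3. Its precursor entry ath-mir-168a was at 0 in the same normal libraries and at 13, 8 and 13 in the stress libraries. Both were therefore listed in all 3 stress libraries and in no normal library. For ath-miR-168b, the mature form from the second gene, the raw count was 2, 4 and 4 in the normal libraries and 13, 10 and 20 in the stress libraries. The precursor ath-mir-168b had exactly the same counts in every library, so that the 5 entries hold 4 distinct sets of counts. By raw count every stress library lay above every normal library for the miR168 entries. For the ath-mir-408 precursor the raw count was 0, 4 and 0 in the normal libraries and 22, 13 and 11 in the stress libraries. All 3 stress libraries again lay above the highest normal library, which was normal library 2. In C. sorokiniana all 5 entries were at 0 in all 6 libraries.

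**Figure D1:**
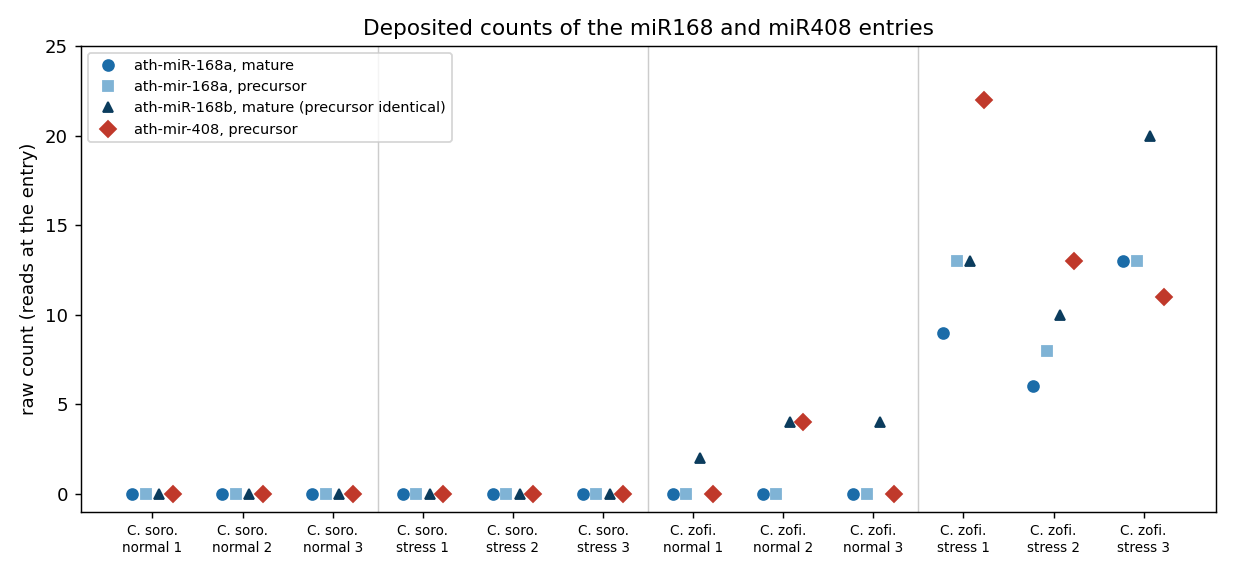
Raw counts (reads placed at the entry, vertical axis) of the distinct entries in each of the 12 libraries; points are single libraries, and precursor ath-mir-168b coincides with its mature entry. Every C. sorokiniana point is at 0, C. zofingiensis normal libraries reach at most 4 reads, and stress libraries hold 6 to 22.

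The entries shared reads, because a read is counted at every entry it maps to. The sheets also give, for each entry, a signal in which the authors divided reads by the number of mapping loci, and the tags behind each entry were solved from this signal and the raw count. The solution took the fewest tags that give both values and the same tags where entries share reads, and a tag that was not an entry's commonest was identified by its number of loci alone. Other solutions exist if the rest of an entry was made of more tags. With 1 tag more there were 5, 4 and 1 of them for ath-mir-408 in stress libraries 1, 2 and 3. For the miR168b entries in stress library 2, 8 solutions had the same fewest tags. The choice there rests on the tags being those shared with ath-miR-168a. Counted once under this solution, the reads behind the 4 miR168 entries were 2, 4 and 4 in the C. zofingiensis normal libraries and 17, 12 and 20 in the stress libraries. Added over the 4 entries, the same reads appear as 4, 8 and 8 counts in normal and 48, 34 and 66 counts in stress. The 4 miR168 entries are thus 1 pool of at most 20 reads per library, not 4 measurements. With each read divided by its loci, no entry reached the equivalent of 1 read in any library. The highest value of this signal was 0.952, for ath-miR-168b in stress library 3, and the highest for ath-mir-408 was 0.929, in stress library 1.

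Within miR168 the tags did not move alike. The 11-base tag with 19 loci, which is counted at the miR168b entries alone, held 2, 4 and 4 reads in the normal libraries and 4, 4 and 7 in the stress libraries. Its range in stress touches the range in normal. The 10-base tag with 30 loci, which is counted at both the miR168a and the miR168b entries, held 0 reads in each normal library and 7, 4 and 10 in the stress libraries. It was the commonest tag of ath-miR-168a in all 3 stress libraries and made 77.8%, 66.7% and 76.9% of that entry's count. The remaining reads came from tags whose sequence the sheets do not print and whose loci were solved from the signal. They were 2 reads with 35 loci in stress library 1, 2 and 3 reads with 12 loci in stress libraries 2 and 3, and, at the ath-mir-168a precursor alone, 4 and 2 reads with 29 loci in stress libraries 1 and 2. Over the group of 3 libraries, the 19-locus tag held 10 reads in normal and 15 in stress, against 0 and 21 for the 30-locus tag. The listing of the miR168a entries in stress alone is therefore the listing of the tags counted at them in stress alone. Except for the tag with 29 loci, these tags were also counted at the miR168b entries under this solution.

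For ath-mir-408 the sheets print the 11-base tag as the commonest in normal library 2 and stress libraries 1 and 2, and the 12-base tag in stress library 3. The count of the other tag in each stress library was solved from its number of loci. On this solution the 11-base tag held 0, 4 and 0 reads in the normal libraries and 16, 8 and 5 in the stress libraries. The 12-base tag, which has 1 further base at its start, held 0 reads in each normal library and 6, 5 and 6 in the stress libraries. Over each group the 11-base tag held 4 reads in normal and 29 in stress, and the 12-base tag 0 and 17.

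**Figure D2:**
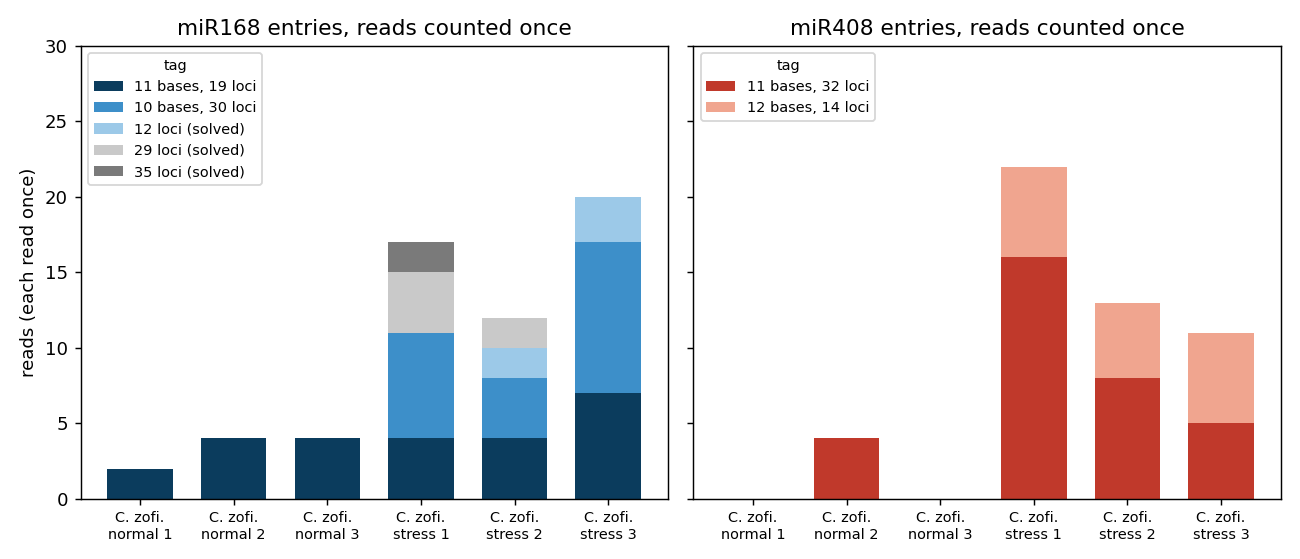
Reads behind the miR168 entries (left) and the ath-mir-408 entry (right) in the 6 C. zofingiensis libraries, each read counted once (vertical axis) and coloured by tag; tags other than an entry's commonest were solved from the per-locus signal, and those marked "solved" have no printed sequence. The dark 19-locus miR168 tag holds 2 to 7 reads in all 6 libraries, while the other miR168 tags and the 12-base miR408 tag stand in stress libraries alone.

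A library lists no entry below 2 reads, so a 0 here need not mean that no read was present. The counts also stand on unequal totals. Summed over annotated entries, C. zofingiensis libraries held 14601, 106200 and 51706 counts in normal culture and 60856, 280404 and 24978 in stress culture. Most of each total was tRNA, from 77.5% of annotated counts in normal library 1 to 95.7% in normal library 2. In stress library 2 a single tRNA entry held 23517 counts. miRNA entries made 547, 522 and 916 counts in normal libraries and 890, 482 and 489 in stress libraries, a much narrower range.

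As a share of annotated counts, in CPM (counts per 1000000 annotated counts), ath-miR-168b was at 137, 37.7 and 77.4 CPM in the normal libraries and at 214, 35.7 and 801 CPM in the stress libraries. The groups overlap: stress library 2, with the largest annotated total, lay below all 3 normal libraries, and stress library 3 far above them. The 100 commonest tags of stress library 2 held 81672 reads, the fewest of the C. zofingiensis libraries, so its annotated total is not a measure of depth. The means were 84.0 ± 50.0 CPM (SD, n = 3) in normal and 350 ± 400.3 (SD, n = 3) in stress, so the difference is smaller than the spread among the stress libraries. As a share of miRNA entry counts, ath-miR-168b made 0.366%, 0.766% and 0.437% in the normal libraries and 1.46%, 2.07% and 4.09% in the stress libraries. On this scale the groups do not overlap. The place of stress library 2 thus depended on the total used.

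For ath-mir-408 the share of annotated counts was 0, 37.7 and 0 CPM in the normal libraries and 362, 46.4 and 440 CPM in the stress libraries. The groups do not overlap, but the exact binomial 95% interval of normal library 2, 10.3 to 96.4 CPM, covers that of stress library 2, 24.7 to 79.3 CPM. Intervals cover counting error only. As a share of miRNA entry counts it was 0%, 0.766% and 0% in normal libraries and 2.47%, 2.70% and 2.25% in stress libraries. On that scale the 3 stress libraries lay closer together, at 2.47% ± 0.224 (SD, n = 3), than those of any miR168 entry.

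The miR168a entries were at 0 in normal culture, so their change is given only as a ratio to 3 counts per library. This level is a reference and not an upper limit, so the ratios are not lower bounds of the change. In stress libraries 1, 2 and 3 ath-miR-168a stood at 148, 21.4 and 520 CPM, and precursor ath-mir-168a at 214, 28.5 and 520 CPM. Against the mean floor of the normal libraries, 97.2 CPM, ath-miR-168a in stress (230 ± 259 CPM, SD, n = 3) stood at a ratio of 2.36. The precursor (254 ± 248 CPM, SD, n = 3) stood at 2.61. Without stress library 3 the first ratio was 0.870, with the stress mean below the floor, and the second was 1.25. Without normal library 1, which has the highest floor, they were 5.33 and 5.89. On the share of miRNA entry counts the ratios to the floor were 3.39 and 3.98, and 2.33 and 3.23 without stress library 3.

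**Figure D3:**
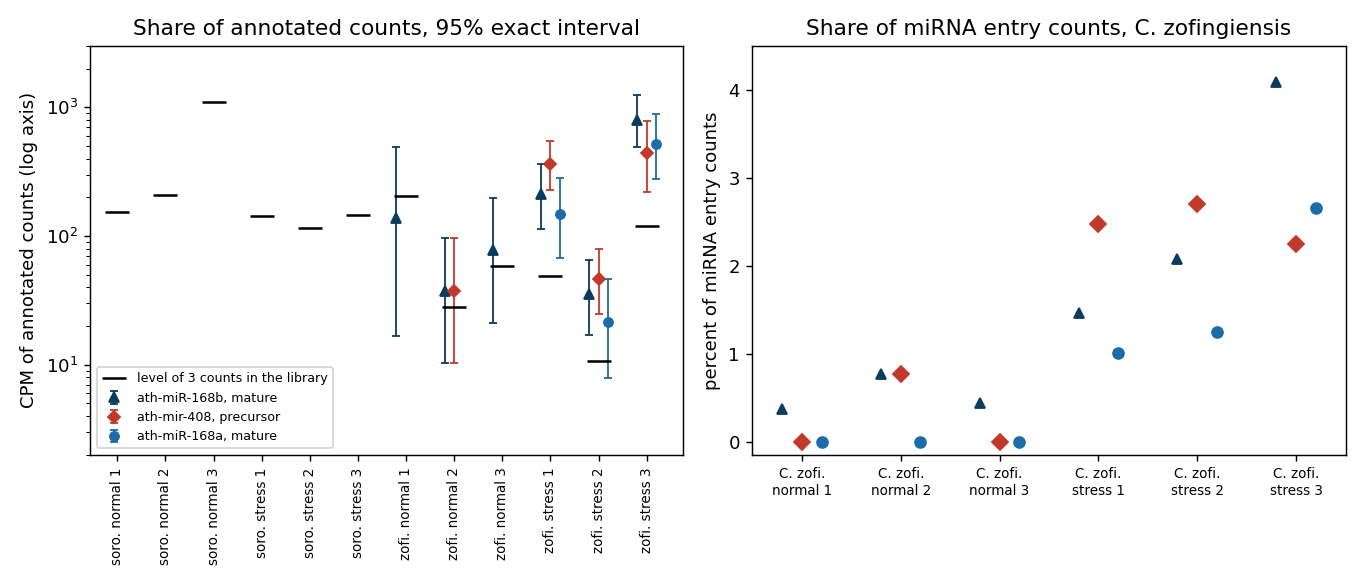
Left: share of annotated counts in CPM (log axis) for 3 entries in each library with exact binomial 95% intervals, zeros not drawn, and a black bar for the level of 3 counts. Right: the same entries as percent of miRNA entry counts in C. zofingiensis. Stress library 2 stands at 21.4 to 46.4 CPM on the left, no higher than normal libraries 1 and 3 for ath-miR-168b, and at 1.24% to 2.70% on the right, above all normal libraries.

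Stress and normal culture of C. zofingiensis were compared over all annotated entries with edgeR's quasi-likelihood test. With the standard filter on low counts, which asked for 178 CPM (10 counts in a library of median size) in at least 3 libraries, 0 of the 5 entries were tested. Each of them passed that level in 1 or 2 libraries. Of the 248 entries that were tested, 87 were called at an adjusted p below 0.05, or 35.1%. The entries were therefore fitted again with no filter, a choice made after seeing the data. The families were chosen with these counts known, so the values that follow describe the fit and support nothing further.

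With no filter, ath-mir-408 had a log2 fold change of 3.29 ± 0.99 (SE), with an adjusted p of 0.0162 in edgeR's quasi-likelihood test. ath-miR-168b had a log2 fold change of 2.02 ± 0.81 (SE) and an adjusted p of 0.0816 in the same edgeR test, which misses the threshold. Leaving out normal library 2, the one normal library with reads of ath-mir-408, moved its log2 fold change to 6.73, a value that depends on the prior count. Leaving out normal library 3 moved it to 2.47, with an edgeR adjusted p of 0.165. ath-miR-168a and precursor ath-mir-168a had adjusted p-values of 0.00726 and 0.00321 in the edgeR test. Their fitted changes depend on the prior count and are not given. Called as higher were thus 3 of the 5 entries, beside 112 of 792 entries or 14.1% in the whole fit. Among the 3, ath-miR-168a and its precursor share most of their reads, so they are not separate calls. With identical counts entered once, 4 of 4 entries were called, beside 15.9% of 289 entries called higher. There ath-miR-168b had an edgeR adjusted p of 0.0417. The median log2 change was 3.29 over the 5 entries, which is the value of ath-mir-408. It was 0.03 over the 114 other miRNA entries and 0.74 over all 792. With the 2 miR168a entries at their ratios to the floor by share of annotated counts, given above, the median over the 5 entries was 2.02. Of those 114 miRNA entries 9 were called higher and 5 lower.

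These calls rested on the scaling and on single libraries. TMM factors, which correct for the composition of a library, ran from 0.173 in stress library 2 to 2.62 in normal library 1. With annotated totals alone and no such factor, 0 of the 5 entries were called, beside 2.27% of all entries called higher. The adjusted p-values in edgeR then ran from 0.0731 for the miR168a entries through 0.228 for ath-mir-408 to 0.468 for ath-miR-168b. The log2 fold changes were 3.86 ± 1.96 (SE) for ath-mir-408 and 2.12 ± 1.80 (SE) for ath-miR-168b, no smaller than before but with larger errors. With the replicate number as a block, 1 of the 5 was called, the ath-mir-168a precursor, at an adjusted p of 0.0350 in edgeR. In the block fit ath-miR-168a had an adjusted p of 0.0570 and ath-mir-408 of 0.0648, the latter with a log2 fold change of 3.69 ± 1.30 (SE). Leaving out 1 library at a time gave 1 called entry without normal library 3, beside 8.86% of all entries called higher. It gave 2 without normal library 2 or stress library 2, beside 7.03% and 11.6%. Without stress library 3 it gave 3, beside 16.3%. Without normal library 1 or stress library 1 it gave 5, beside 19.3% and 14.2%. The direction was higher in stress in every one of these fits. For the miR168a entries, at 0 in every normal library, no other direction was possible. The other entries had every raw stress count above every raw normal count, so the shared direction adds little.

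C. sorokiniana held none of the entries, at annotated totals of 2718 to 26102 counts per library. The floor of 3 counts corresponds to 115 to 1104 CPM in these libraries, and it is a reference level rather than an upper limit, since the sheets list no entry below 2 reads. In normal culture the C. zofingiensis entries stood at 0 to 137 CPM, below the floors of 155 to 1104 CPM in the single C. sorokiniana normal libraries. By share of annotated counts a difference between the species in normal culture was therefore not detectable at this depth. By share of miRNA entry counts, ath-miR-168b in C. zofingiensis stood at 1.30 times the mean C. sorokiniana floor. This ratio was 0.999 without C. sorokiniana normal library 1 and 0.998 without C. zofingiensis normal library 2. In stress culture the floors in C. sorokiniana were 115 to 145 CPM. ath-mir-408 exceeded them in C. zofingiensis stress libraries 1 and 3, at 362 and 440 CPM, and lay below them in stress library 2, at 46.4.

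By share of annotated counts, C. zofingiensis stress cultures were set against the mean C. sorokiniana floor of 3 counts per library. The ratios to that floor were 2.11 for ath-mir-408, 2.61 for ath-miR-168b, 1.89 for precursor ath-mir-168a and 1.71 for ath-miR-168a. Without C. zofingiensis stress library 3 these ratios were 1.52, 0.928, 0.902 and 0.630, so that only the first mean still lay above the floor. By share of miRNA entry counts the ratios to the floor were 12.3, 12.7, 9.60 and 8.17, and without that library 12.9, 8.81, 7.78 and 5.62. A fit of all 893 entries with no filter called all 5 entries (4 distinct) as higher in C. zofingiensis under stress, at edgeR adjusted p-values between 0.000687 and 0.00212, beside 27.3% of all entries. All 5 were at 0 in every C. sorokiniana library and were listed only through C. zofingiensis, so this direction was fixed in advance. The families were also chosen with these counts known, so the species calls describe the fit and support nothing further. In normal culture the same fit called 0 of 5, beside 9.74% of all entries, with an edgeR adjusted p of 0.206 for ath-miR-168b and 0.476 for ath-mir-408. With miRNA entries alone, ath-miR-168b and its identical precursor were called higher in normal culture, at an edgeR adjusted p of 0.00943, beside 10.4% of those 154 entries. Of the 893 entries, 532 were named in both species and none of the 5 was among them, so the planned test of a species by condition interaction could not include them.

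The other miRNAs with related roles were nearly unlisted. Besides miR168, Arabidopsis miR162 pairs with the messenger RNA of DICER-LIKE1, the enzyme that cuts miRNA precursors, and miR403 with that of ARGONAUTE2. Precursor ath-mir-162a held 2 reads in each of C. sorokiniana stress libraries 2 and 3, and ath-mir-162b held 2 in stress library 2. Their commonest tags were 16 and 15 bases long and are shown for their length beside the tags above.
ath-mir-162a and ath-mir-162b, stress library 2: agcagcgggtcatcga
ath-mir-162a, stress library 3: gtaaaagcgtgaata
The first mapped to 19 loci and the second to 14. miR403 was at 0 in all 12 libraries. Within the machinery list C. zofingiensis thus listed miR168 and C. sorokiniana miR162, each in 1 of 3 families, at counts too low to compare. Of the copper miRNAs, miR397 pairs with laccase and miR398 with copper/zinc superoxide dismutase messenger RNAs in Arabidopsis, and both were at 0 in all 12 libraries. Precursor ath-mir-857, of a further laccase regulator, held 2 reads in C. zofingiensis normal library 3, on a 12-base tag with 43 loci. ath-mir-408 was thus the copper miRNA entry with more than 2 reads in any library.

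Short tags were common among miRNA entries as a whole. The commonest tag was 12 bases or shorter in 22 of 22 listings of the 5 entries and in 50.3% of the 294 other miRNA listings of C. zofingiensis, where the median was 12 bases and the longest 19. In C. sorokiniana the median over 238 miRNA listings was 13 bases. No miRNA listing of either species had a commonest tag of 20 to 24 bases. Among the 2865 tRNA, snoRNA and rRNA listings of C. zofingiensis the median was 16 bases, 12.8% were 12 bases or shorter and 11.3% were 20 to 24 bases. The number of loci fell with length: distinct tags of 10, 11 and 12 bases had median loci of 40, 30 and 20. The highest number of loci in any library was 49. Tags with more loci may have been left out, so these medians may be too low. The 10-base tag of miR168, with 30 loci, and its 11-base tag, with 19, lay below those medians, as did the 12-base tag of miR408, with 14, and the 11-base tag of miR408 lay just above, with 32.

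**Figure D4:**
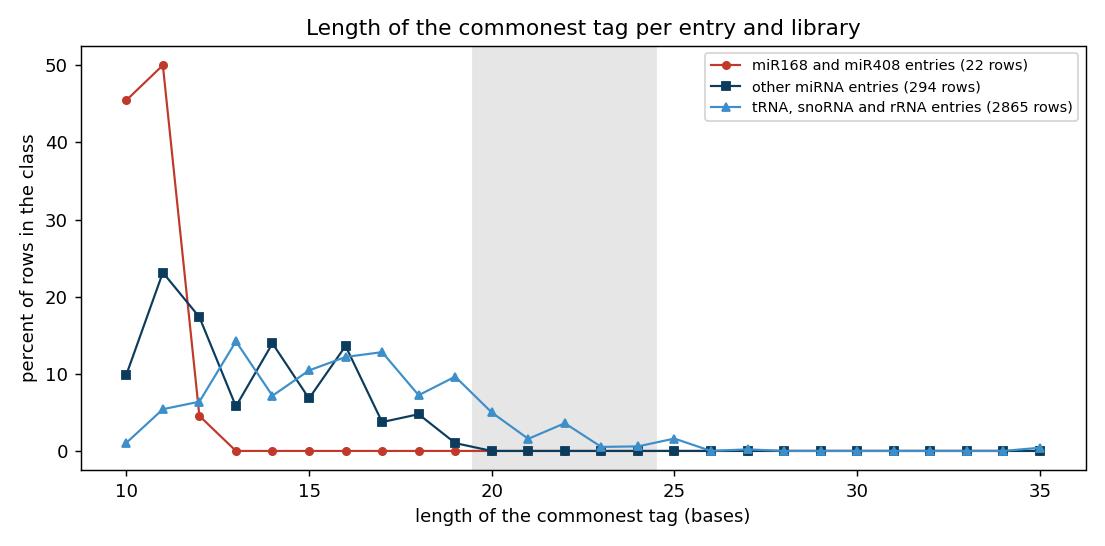
Length of the commonest tag (horizontal axis, bases) of each entry in each C. zofingiensis library, as percent of the listings in its class (vertical axis); the grey band spans 20 to 24 bases. The miR168 and miR408 listings lie at 10 to 12 bases, other miRNA listings end at 19, and only tRNA, snoRNA and rRNA listings enter the band.

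Among miRNA entries of the same library, ath-miR-168b ranked 33rd of 47, 22nd of 47 and 22nd of 47 in normal libraries 1, 2 and 3, and 15th of 78, 15th of 47 and 6th of 50 in the stress libraries. ath-mir-408 ranked 22nd of 47 in normal library 2 and 9th of 78, 12th of 47 and 14th of 50 in the stress libraries. The highest miRNA entry was ath-mir-5652 in each of these libraries. It held 188, 218 and 517 counts in normal libraries 1, 2 and 3 and 139, 79 and 77 in the stress libraries. These counts are part of the totals behind the shares of miRNA entry counts above. The entries nearest in pattern were sought for ath-miR-168b, the one listed in at least 6 libraries, by Spearman's rho of log2(CPM + 1) over the 12 libraries and 244 candidate entries. They were a U6 entry at chromosome 4, 15965153 to 15965255, with rho of 0.99, a tRNA entry of chromosome 1 that spans 892514 to 892585, and a tRNA entry of chromosome 5 that spans 389893 to 389963, both with rho of 0.98. Positions are on Arabidopsis TAIR9, as the entry names give them, and 3 tRNA entries share the counts of the first. Each of them was at 0 in all 6 C. sorokiniana libraries, as ath-miR-168b was, and these 6 shared zeros enter the rho. The annotated totals, 14601 to 280404 counts in C. zofingiensis, divide the counts of every entry and so enter the rho too. The U6 entry held 14, 42 and 27 counts in C. zofingiensis normal libraries and 54, 43 and 29 in stress libraries. The chromosome 1 tRNA entry held 9, 65 and 74 in normal and 55, 81 and 94 in stress libraries. The chromosome 5 tRNA entry held 255, 156 and 154 in normal and 213, 116 and 134 in stress libraries. None of these entries showed the separation of normal from stress raw counts seen for ath-miR-168b. By CPM, the scale of the rho, ath-miR-168b did not separate the groups either.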

How the data were processed

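Small RNA of 12 libraries was analysed, 3 in each of 4 groups taken from the labels. The authors deposited annotation sheets, named after the omiRas tool, with whole-number raw counts per Arabidopsis entry, per the file headers; a read is counted at each entry it maps to. A second deposited column holds a signal in which the authors divided reads by mapping loci, per the file headers. DESeq and the build TAIR9 are named in the submitters' processing notes without versions; for the aligner, the trimming and the full depth, nothing is given in the sources used here. An entry missing from a sheet was taken as 0.

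Members were matched by name. Tags behind an entry were solved from count and signal to within 5e-06. Counts were fitted with edgeR 4.0.16 (R 4.3.3; quasi-likelihood, robust, TMM, filterByExpr, two-sided), adjusted by Benjamini-Hochberg over all entries and called below 0.05; the steps were tested on simulated data. Alternatives were DESeq2 1.42.0, RLE factors, annotated totals, no filter, identical counts once, miRNA entries alone, a replicate block and leaving out each library. Tables and figures used Python 3.11.15, pandas 2.3.3, numpy 2.4.6, scipy 1.17.1 and matplotlib 3.10.9. The labels give replicate numbers but do not state a shared culture or day. In C. zofingiensis, deviations of same-numbered normal and stress libraries from their group means correlated at 0.519, 0.503 and 0.252 over 257 entries. Libraries of different number there correlated at -0.577 to 0.0778. Same-numbered libraries of C. sorokiniana correlated at 0.0997, 0.319 and 0.18, and the others at -0.255 to 0.155. These values do not establish a pairing, so the replicate block was run as an alternative. Replicate pairs differed beyond sampling noise in each group.

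The members, the lists (all miRNA entries; miR162, miR168 and miR403; miR397, miR398, miR408 and miR857) and the tests were chosen with earlier results of these data known. All 5 entries are named; the 3 entries nearest in pattern were named for members listed in at least 6 libraries, among entries with a mean count of at least 10. Per-library intervals are exact binomial (Clopper-Pearson, 95%), and floors are 3 counts; libraries carry no molecular identifiers, so both cover counting error only. Annotated totals were 2718 to 280404 counts.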

Additional observations from a re-analysis of the deposited data

How the results depend on the processing

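With the planned filter, 0 of the 5 entries were tested or called in C. zofingiensis stress against normal, and the same held with RLE factors, annotated totals, identical counts entered once and the replicate block. With no filter 3 were called, with DESeq2 3, and with miRNA entries alone 1 (ath-mir-408, the 1 entry that passed). Leaving out each library, filter kept, gave 0 to 2 called. The entries called in these filtered fits were ath-mir-408 and the ath-mir-168a precursor. With at most 4 reads in any normal library, both met the filter through their stress libraries. Their direction, higher in stress, was therefore set by the filter, and these calls add no support. From the fit with no filter (chosen after seeing the data, 3 called), annotated totals gave 0 and the replicate block 1; leaving out each library gave 1 to 5, and RLE factors, DESeq2, miRNA entries alone and identical counts entered once gave 3, 3, 3 and 4. The cause was not tested. Over all entries the filtered fit called 87 of 248, with annotated totals 35 and with the block 132. With no filter 140 of 792 were called, with annotated totals 21 and with the block 127. Without C. zofingiensis normal libraries 1, 2 and 3 the fit with no filter called 251, 70 and 85. Without stress libraries 1, 2 and 3 it called 119, 145 and 152. The species fit in stress kept 5 of 5 called, or 4 of 4 with identical counts once, under every alternative run. Its direction was fixed by the zeros in C. sorokiniana, so these repeats add no support. The species fit in normal culture kept 0 called under every alternative but miRNA entries alone, which gave 2 (ath-miR-168b and its identical precursor). C. sorokiniana, where all 5 are at 0, and the planned species and interaction fits, limited to entries named in both species, held no member and gave no value; no paired analysis was possible there for that reason. Depth limits all of this: no entry exceeded 22 reads in a library.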
